A study of Drosophila melanogaster with 12 samples.

Results

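The diet response of fat body libraries labelled EcR RNAi was described by setting 3 libraries from larvae reared on 0.5 M sucrose beside 3 from larvae reared on 0.15 M sucrose. These 6 of the series' 12 libraries were chosen by their labels alone, and all 10047 genes of the deposited table were compared. Fat bodies came from female Drosophila melanogaster larvae in the third instar, at the wandering stage when they leave the food to pupariate. Larvae labelled EcR RNAi, called EcRi below, had fathers of the VDRC stock 37058, which carries UAS-EcR RNAi, and mothers carrying UAS-Dcr2 on the X chromosome together with r4-GAL4. The 6 control libraries, 3 on each diet, had the same maternal genotype and fathers of the VDRC stock 60000. Their titles name them vw1118, written vvw1118 for control 0.15 M replicate 1. Both genotypes therefore carried the driver and UAS-Dcr2, and EcR was targeted by 1 RNAi stock. The question addressed here was how high sugar related to fat body RNA under the EcR RNAi label, and whether that change differed from the one in controls.

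The larval fat body is the insect counterpart of liver and adipose tissue. It stores glycogen and triglyceride, turns excess dietary sugar into fatty acids and into trehalose, the circulating sugar of insects, and releases peptides that report nutrition to other organs. EcR is the nuclear receptor for ecdysone, the steroid that starts each moult and metamorphosis, and r4-GAL4 is a driver active in the fat body. Sugar is sensed in this tissue by Mondo with its partner Mlx, transcription factors homologous to mammalian ChREBP and MLX, whose targets include genes of glycolysis and lipogenesis.

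Values below are the authors' normalised signal per gene and library, and changes are differences of log2(signal + 1) between 0.5 M and 0.15 M sucrose. Each library held 8519205 to 11601009 reads, as recovered from this signal. Pearson's r of log2 signal over genes was 0.969 to 0.981 for EcRi libraries of the same diet and 0.93 to 0.967 for EcRi libraries of different diets. The signal of control 0.5 M replicate 1 summed to 15045575, where the other 11 libraries had 8864826 to 10966639. Whether libraries came from separate crosses or cultures is not stated in the labels, and the p-values cover no more than the spread among these samples, some of which may be technical. In bulk tissue, fewer cells of a type and less RNA per cell cannot be told apart.

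EcR (FBgn0000546) itself had signals of 1235, 1023 and 1138 on 0.15 M sucrose and 1346, 1770.5 and 1125 on 0.5 M in the EcRi libraries, and of 1368, 1559 and 1214 on 0.15 M and 1386, 1513 and 1463 on 0.5 M in controls. Within each diet the EcRi and control values overlapped, so the level of its transcript did not separate the libraries by genotype. The part of RNAi transgene RNA in this signal was not tested, and EcRi names a label here. Other genes did lie apart between the genotypes, such as CG15068 and CG4269, whose values are given below. With diet EcR moved by 0.3 ± 0.17 in EcRi (log2, SE; -0.07 to 0.67 at 95% confidence), with a Benjamini-Hochberg adjusted p of 0.217 in limma. The eye pigment gene w, which RNAi transgenes usually carry as a marker, was at 1294, 1290.1 and 1260 on 0.15 M sucrose and 1694, 1698 and 1552 on 0.5 M in EcRi, a change of 0.36 ± 0.19 (adjusted p = 0.171). Dcr-2, which both genotypes received as a transgene, changed by 0.63 ± 0.23 (adjusted p = 0.0604), with its EcRi groups apart. Markers of the fat body were abundant in all EcRi libraries: Lsp2, a storage protein of the larval fat body, was at 644400, 669330 and 659510 on 0.15 M sucrose and 929290, 859250 and 782730 on 0.5 M, and the 9 fat body markers summed to between 1911000 and 2509000 per EcRi library.

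High sugar went with a broad change of RNA in the EcRi libraries. The genes that rose included 5 of 7 measured for sugar sensing, 8 of 14 for glycolysis (4 without EcRi 0.15 M replicate 2), 12 of 18 for the tricarboxylic acid (TCA) cycle and 10 of 16 for fatty acid oxidation. They also included 10 of 20 for fatty acid synthesis, where 1 fell, 9 of 13 for insulin signalling and 11 of 21 for autophagy. Those that fell included 13 of 14 RNAs encoded by the mitochondrial genome, 6 of 13 heat shock protein genes, the metallothioneins MtnA, MtnD and MtnE, and the ecdysone synthesis genes spok, phm and nvd. limma called 2451 of 10047 genes at a Benjamini-Hochberg adjusted p under 0.05, which is 24.4% of all genes tested. Of these, 1406 were higher on 0.5 M sucrose (14% of all genes) and 1045 were lower (10.4%), and 993 changed at least 2-fold. For 44.7% of genes the ranges of the 2 EcRi diet groups did not overlap. The split by direction moved with the scaling of the libraries. Scaled by their upper quartiles, 773 genes were higher and 1792 lower, a share of 30.1% higher against 57.4% above, and the median of all genes moved from -0.02 to -0.23. After quantile normalisation 931 were higher and 936 lower, or 49.9% higher. The number called also rested on single libraries, being 1355 without EcRi 0.5 M replicate 1 and 1431 without EcRi 0.15 M replicate 2.

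In controls the same test called 173 genes, 1.72% of all genes. Leaving out single control libraries moved that count by more than 1.5 times in 5 of 6 cases. It was 103 without control 0.15 M replicate 2, 74 without replicate 3 of the same group, 105 without control 0.5 M replicate 1, 359 without replicate 2 and 84 without replicate 3. The diet comparisons of the 2 genotypes share no library. Among the called genes, 105 rose and 8 fell in both genotypes, which is 4.61% of the EcRi calls and 65.3% of the control calls, and 2 were called in opposite directions. Over the genes called higher in EcRi the median change was 0.72 in EcRi and 0.10 in controls, and over those called lower it was -1.17 and -0.25. The EcRi medians describe genes chosen for their change in EcRi. The difference between the genotypes was tested as an interaction, the diet change in EcRi minus that in controls. It was called for 394 genes (3.92%), with a larger value in EcRi for 260 (2.59%) and a smaller one for 134 (1.33%). With upper quartile scaling that split turned to 139 and 209, or from 66% to 39.9% larger, and after quantile normalisation it was 187 and 186. The interaction count also rested on single libraries. It was 141 without EcRi 0.5 M replicate 1, 248 without replicate 3 of that group, and 242 and 151 without EcRi 0.15 M replicates 1 and 2. Among controls it was 183 and 239 without replicates 2 and 3 on 0.15 M and 183 without replicate 3 on 0.5 M.

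**Figure D1:**
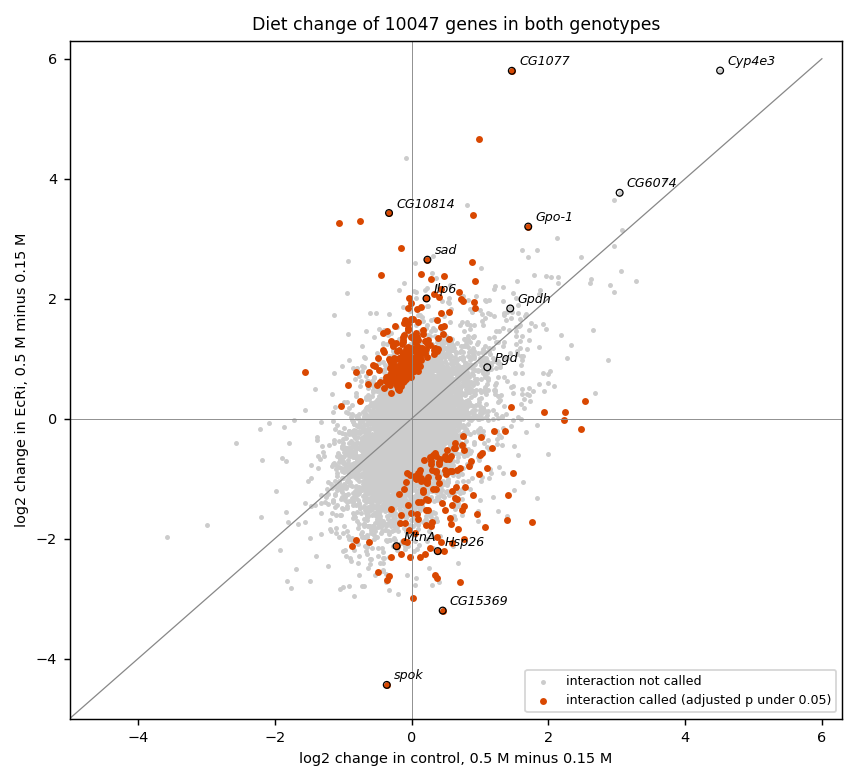
Diet change (log2, 0.5 M minus 0.15 M sucrose) of the 10047 genes in control libraries (x axis) and EcRi libraries (y axis), with the 394 genes whose interaction was called in orange and the diagonal marking equal change. Genes such as Cyp4e3 and CG6074 moved up in both genotypes, while CG10814, sad, Ilp6, spok and MtnA lie near 0 for controls and far from 0 for EcRi.

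The direction of change in EcRi followed the level of expression. Genes were ranked by their mean signal over the 12 libraries and divided into deciles. In the lowest decile, with means from 1.67 to 10.8, 5 genes were called higher and 154 lower, and the median change was -0.74. In the ninth decile, with means from 444 to 918, 348 were called higher and 46 lower, and the median was 0.29. The control medians of these deciles were -0.12 and 0.08. After quantile normalisation, which gives every library the same distribution of values, the lowest decile held 34 higher and 31 lower genes. The 3 highest deciles together had 30.7% of their genes called higher and 4.91% lower, which is the nearer background for the abundant metabolic genes below. The 3 lowest deciles had 1.53% called higher and 15.1% lower. Of 104 small nucleolar RNAs, 85 of them in those 3 deciles, 27 fell and 0 rose, a share of 26%, and their median was -0.83 against -0.40 in controls. The count was 40 with upper quartile scaling, 11 after quantile normalisation, 17 and 6 without EcRi 0.15 M replicates 1 and 2, and 7 without EcRi 0.5 M replicate 1.

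**Figure D2:**
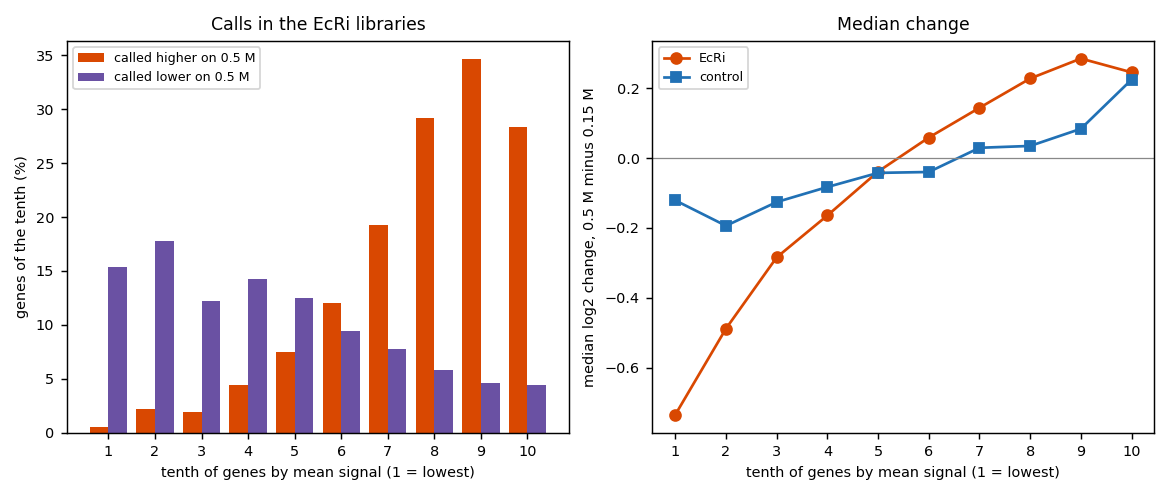
Left, the percentage of genes called higher (orange) and lower (purple) on 0.5 M sucrose in EcRi libraries, by deciles of all genes from the lowest to the highest mean signal. Right, the median log2 change of each decile in EcRi (circles) and control libraries (squares). Lower calls predominate in the 5 lowest deciles and higher calls in the 5 highest, and the EcRi medians run from -0.74 to 0.29.

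Sugar sensing genes rose the most of the pathway lists by their median. Of 7 measured, 5 rose and 0 fell, with a median change of 1.17 against -0.02 over all genes. The median was 0.25 in the 3 highest deciles of expression, where 6 of the 7 lie. Mio (FBgn0032940), the gene of the sugar sensor Mondo, had signals of 528, 426 and 675 on 0.15 M sucrose and 2058, 1580.1 and 1408 on 0.5 M. All 3 libraries on 0.5 M sucrose lay above all 3 on 0.15 M, a rise of 1.64 ± 0.18 (log2, SE; adjusted p = 2.1e-05). Controls were at 588, 617 and 557 on 0.15 M and 783, 828 and 676 on 0.5 M, a change of 0.37 ± 0.18 with an adjusted p of 0.356, and the difference between genotypes was 1.26 ± 0.25 (interaction adjusted p = 0.0122). Smox, the Smad protein that carries signals of Activin-type ligands, had 975, 776 and 974 on 0.15 M sucrose and 2540, 2230.3 and 2188 on 0.5 M. The groups did not overlap, the rise was 1.36 ± 0.15 (adjusted p = 2.52e-05), and the control change was -0.01 ± 0.15 (interaction adjusted p = 0.00334). The Activin-type ligand gene daw rose by 1.25, the Mondo target cbt, a transcription factor, by 0.82, and sug (sugarbabe), a transcription factor gene known to be induced by dietary sugar, by 1.17 (adjusted p from 0.000393 to 0.00667). For sug the control change was 1.13 (adjusted p = 0.0486).

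Enzymes of glycolysis and of the glycerol 3-phosphate shuttle rose. Of 14 glycolytic genes 8 rose and 0 fell, with a median of 0.73 against 0.34 in controls, and 4 rose without EcRi 0.15 M replicate 2 and 5 without EcRi 0.5 M replicate 1. In controls 0 were called. An unadjusted p under 0.05 was passed by 9 in EcRi and 4 in controls, and the interaction was called for 1. Muscle marker genes moved with the glycolytic genes, their summed signal being 8682 to 29780 in EcRi on 0.15 M and 39510 to 83790 on 0.5 M. The part of muscle RNA in these enzymes was not tested. Pfrx, whose product makes fructose 2,6-bisphosphate, the activator of phosphofructokinase, had 503, 319 and 510.0 on 0.15 M sucrose and 1164, 1208 and 904 on 0.5 M, with no overlap. Its change was 1.32 ± 0.19 in EcRi (adjusted p = 0.000206) and 0.08 ± 0.19 in controls (interaction adjusted p = 0.0179). Pyruvate kinase (PyK), aldolase (Ald) and phosphofructokinase (Pfk) rose by 1.08, 1.08 and 0.83 (adjusted p from 0.000643 to 0.0048).

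Gpo-1 (FBgn0022160), the mitochondrial glycerol 3-phosphate dehydrogenase, had the largest rise among the genes of the 7 lists of sugar and fatty acid metabolism. Its signals were 97.5, 55.2 and 70.3 on 0.15 M sucrose and 684, 557 and 803 on 0.5 M, a rise of 3.2 ± 0.22 (adjusted p = 3.98e-07) or 9.16-fold of the means. Controls had 88.1, 93.2 and 86.8 on 0.15 M and 374, 217 and 313 on 0.5 M, and their rise was smaller, at 1.71 ± 0.22 (adjusted p = 0.000749; interaction adjusted p = 0.0149). Its cytosolic partner Gpdh rose by 1.84 ± 0.23 in EcRi and by 1.44 ± 0.23 in controls (adjusted p = 8.47e-05 and 0.00346), and the interaction was not called (adjusted p = 0.531). Of the 12 genes of gluconeogenesis and glycerol 3-phosphate metabolism 6 rose and 0 fell, 3 without EcRi 0.5 M replicate 1, with a median of 0.48 against 0.44 in controls. An unadjusted p under 0.05 was passed by 7 in EcRi and 6 in controls, and the interaction was called for 1. Pepck2 (CG10924), a phosphoenolpyruvate carboxykinase, rose by 1.1 (adjusted p = 0.00436).

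Of 9 pentose phosphate and NADPH genes 4 rose and 0 fell, with a median of 0.52 against 0.57 in controls, where 2 rose. An unadjusted p under 0.05 was passed by 5 in EcRi and 6 in controls, and the interaction was called for 1. Zw, glucose 6-phosphate dehydrogenase, the first enzyme of the pathway, had 178, 152 and 205 on 0.15 M sucrose and 526, 785 and 591 on 0.5 M, with the groups apart. It rose by 1.82 ± 0.19 in EcRi and by 1.0 ± 0.19 in controls (adjusted p = 1.42e-05 and 0.0121; interaction adjusted p = 0.0962). Pgd, the next oxidative enzyme, rose by 0.86 and 1.11 (adjusted p = 0.00718 and 0.00994). Malic enzyme (Men), another source of NADPH, had 6092, 6373 and 6995 on 0.15 M sucrose and 18898, 18566 and 18820 on 0.5 M, so that the 0.5 M libraries were close to one another and all higher. It rose by 1.53 ± 0.21 (adjusted p = 0.000148), against 0.42 ± 0.21 in controls (interaction adjusted p = 0.0478). In the polyol pathway 1 of 6 genes rose, CG6084 at 0.79 (adjusted p = 0.0321), and it lost its call in 4 of the 12 fits that left out 1 library.

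Downstream of glycolysis, 12 of 18 genes of the TCA cycle and pyruvate dehydrogenase rose and 0 fell. Their median was 0.61 against 0.22 in controls, and 9 to 12 rose when 1 library was left out. In controls 0 were called. An unadjusted p under 0.05 was passed by 13 in EcRi and 4 in controls, and the interaction was called for 1. After quantile normalisation 8 rose and 2 fell. CG5261, the acetyltransferase subunit of pyruvate dehydrogenase, had 376, 386 and 496 on 0.15 M sucrose and 1101, 985 and 865 on 0.5 M, with no overlap between diets. It rose by 1.23 ± 0.16 (adjusted p = 0.000105; interaction 0.96 ± 0.23, adjusted p = 0.0321). The succinyl-CoA ligase subunit gene skap and the isocitrate dehydrogenase subunit genes CG5028 and CG6439 rose by 1.29, 1.02 and 0.82 (adjusted p from 0.000178 to 0.0013).

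Genes of fatty acid synthesis and of fatty acid oxidation rose together. In the lipogenesis list 10 of 20 rose and 1 fell, with a median of 0.48 against 0.43 in controls, where 3 rose. An unadjusted p under 0.05 was passed by 12 in EcRi and 11 in controls, and the interaction was called for 1. In EcRi 7 rose with upper quartile scaling, 8 after quantile normalisation, and 7 without EcRi 0.15 M replicate 2 or EcRi 0.5 M replicate 1 or 2. Of the 20, 16 lie in the 3 highest deciles of expression, where 30.7% of genes were called higher. CG3523 (FBgn0027571), fatty acid synthase FASN1, had 19188, 12761 and 21443 on 0.15 M sucrose and 51979, 56212 and 44599 on 0.5 M. The lowest 0.5 M library had more than 2 times the signal of the highest 0.15 M library, and the rise was 1.54 ± 0.23 (adjusted p = 0.00033). Its change in controls was 0.43 ± 0.23 (interaction adjusted p = 0.0687). Lpin, lipin, the phosphatidate phosphatase of triglyceride synthesis, and fu12, the acyltransferase Agpat2, rose by 1.29 and 1.75 (adjusted p = 0.000182 and 0.000746). ACC, acetyl-CoA carboxylase, which makes the malonyl-CoA for fatty acid synthesis, named after its value was seen, rose by 1.18 (adjusted p = 0.00127). The 1 gene that fell was CG3812, an acylglycerol-phosphate acyltransferase, also named after its value was seen, by 0.88 on the log2 scale (adjusted p = 0.00557).

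Of 16 fatty acid oxidation genes 10 rose and 0 fell, 9 to 12 when 1 library was left out, with a median of 0.84 against 0.49 in controls. In controls 2 were called higher, and the interaction was called for 0. At an unadjusted p under 0.05 there were 12 in EcRi and 11 in controls. CG2107, carnitine palmitoyltransferase CPT2, which loads fatty acids into mitochondria, had 348, 381 and 427 on 0.15 M sucrose and 936, 802 and 711 on 0.5 M, with the groups apart. It rose by 1.08 ± 0.16 (adjusted p = 0.000305). The outer carnitine palmitoyltransferase whd, Mtpalpha, the trifunctional protein subunit of beta-oxidation, and the thiolase gene yip2 rose by 1.17, 1.25 and 1.21 (adjusted p from 0.000389 to 0.000761). Among 15 genes of lipid droplets, lipases and lipid transport 2 rose and 2 fell, and the median was -0.05. Without control 0.5 M replicate 1 the counts were 5 and 4, and upper quartile scaling gave 2 and 4. The triglyceride lipase bmm (brummer) had 143, 147 and 162 on 0.15 M sucrose and 385, 363 and 402 on 0.5 M, a rise of 1.34 ± 0.17 (adjusted p = 8.3e-05; interaction 0.96 ± 0.24, adjusted p = 0.0388). On 0.15 M sucrose all 3 EcRi libraries lay below all 3 controls for bmm, at 322, 295 and 202, and on 0.5 M the genotypes overlapped. Lsd-1, a lipid droplet perilipin, rose by 1.27 (adjusted p = 0.00136). The 2 lower genes, fabp at -0.88 and LpR1 at -0.46, lost their calls in 3 and 10 of the 12 fits that left out 1 library.

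Genes of sugar storage rose as well. In the glycogen and trehalose list 7 of 11 rose and 0 fell, with a median of 0.69 against 0.42 in controls, where 1 rose. An unadjusted p under 0.05 was passed by 8 in EcRi and 5 in controls, and the interaction was called for 0. After quantile normalisation 3 rose. Without EcRi 0.15 M replicates 1 and 2 in turn 4 and 2 rose, and 3 rose without EcRi 0.5 M replicate 1 or 2. Tret1-1, a trehalose transporter, and CG6904, glycogen synthase, rose by 0.97 and 0.6 (adjusted p = 0.00339 and 0.00712).

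**Figure D3:**
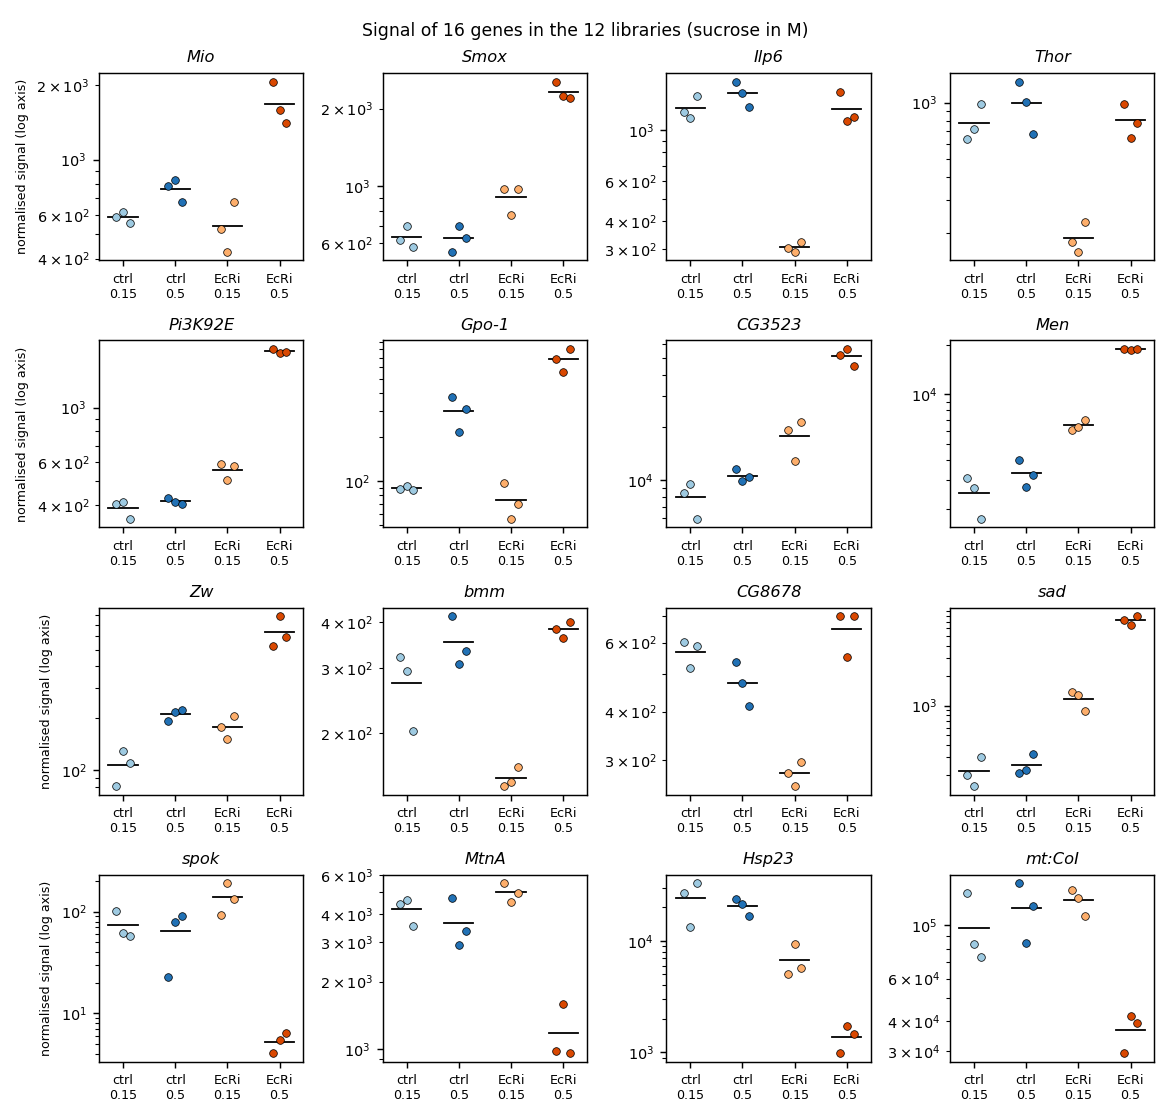
Normalised signal (log axis) of 16 genes in each of the 12 libraries, grouped by genotype and by sucrose in the food, with a bar at each group mean. For all 16 genes the 3 EcRi libraries on 0.5 M sucrose lie apart from the 3 on 0.15 M, with Mio to sad higher and spok to mt:CoI lower.

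Genes of insulin signalling rose in EcRi. Of 13 measured 9 rose and 0 fell, with a median of 0.59, and the interaction was called for 5. In controls the median was 0.03, 0 were called by limma or by voom, which models the recovered reads, and 0 passed an unadjusted p under 0.05. With upper quartile scaling 6 rose, and after quantile normalisation 4 did. Ilp6 (FBgn0044047), an insulin-like peptide that the fat body secretes, had 304, 293 and 324 on 0.15 M sucrose and 1478, 1102 and 1149 on 0.5 M. The groups lay far apart, a rise of 2.0 ± 0.16 (adjusted p = 1.12e-06) or 4.05-fold. Controls were at 1199.7, 1134 and 1414 on 0.15 M and 1637, 1461 and 1265 on 0.5 M, a change of 0.22 ± 0.16 (interaction 1.79 ± 0.22, adjusted p = 0.000581). On 0.15 M sucrose each EcRi library was below each control, and on 0.5 M their ranges overlapped.

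Thor, the 4E-BP protein that represses translation, was at 179, 159 and 228 on 0.15 M sucrose and 988, 648 and 776 on 0.5 M in EcRi and at 636, 717 and 982 on 0.15 M and 1294, 1011 and 677 on 0.5 M in controls, again with EcRi below the controls on 0.15 M and overlapping them on 0.5 M. It rose by 2.08 ± 0.24 in EcRi (adjusted p = 5.55e-05; interaction 1.75 ± 0.34, adjusted p = 0.0121). Pi3K92E, the catalytic subunit of phosphoinositide 3-kinase, differed in that all 3 EcRi libraries on 0.5 M lay above every other library, at 586, 504 and 576 on 0.15 M sucrose and 1741, 1681 and 1687 on 0.5 M. It rose by 1.62 ± 0.13 (adjusted p = 1.12e-06), against 0.1 ± 0.13 in controls (interaction adjusted p = 0.000502). The kinase gene Akt1 rose by 0.77 (adjusted p = 0.00298; interaction adjusted p = 0.0329).

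In the TOR signalling list 7 of 17 genes rose and 0 fell, 4 with either upper quartile scaling or quantile normalisation, which each gave 1 lower gene. The median was 0.38 against 0.01 in controls. The kinase S6k, a target of TOR, had 390.0, 307 and 357 on 0.15 M sucrose and 679.7, 661 and 609 on 0.5 M and rose by 0.89 ± 0.14 (adjusted p = 0.000387). Sesn (sestrin) and gig, the TSC2 protein, both inhibitors of TOR complex 1, rose by 0.76 and 0.73 (adjusted p = 0.00226 and 0.00204). REPTOR (CG13624), a transcription factor that TOR holds inactive, rose by 1.03 (adjusted p = 0.00163). The interaction was called for S6k, Sesn and gig, at 0.89, 1.07 and 0.91 (adjusted p from 0.0122 to 0.021).

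Of 8 genes for signals that the fat body secretes, 4 rose and 1 fell. CCHa2, a peptide hormone that acts on insulin-producing neurons, had 921, 907 and 795 on 0.15 M sucrose and 1998, 2539 and 2246 on 0.5 M, and both genotypes rose, by 1.37 ± 0.19 in EcRi and by 1.2 ± 0.19 in controls (adjusted p = 0.000136 and 0.00236; interaction adjusted p = 0.772). ImpL2, which binds insulin-like peptides, rose by 0.65 (adjusted p = 0.017) but lost its call in 4 of the 12 fits that left out 1 library. Among 4 nuclear receptor genes of metabolism svp, the COUP-TF receptor, rose by 0.93 ± 0.16 (adjusted p = 0.000744; interaction adjusted p = 0.0304). Hnf4 and Hr96 rose by 0.56 and 0.51 and lost their calls in 2 and 4 of the 12 fits that left out 1 library.

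**Figure D4:**
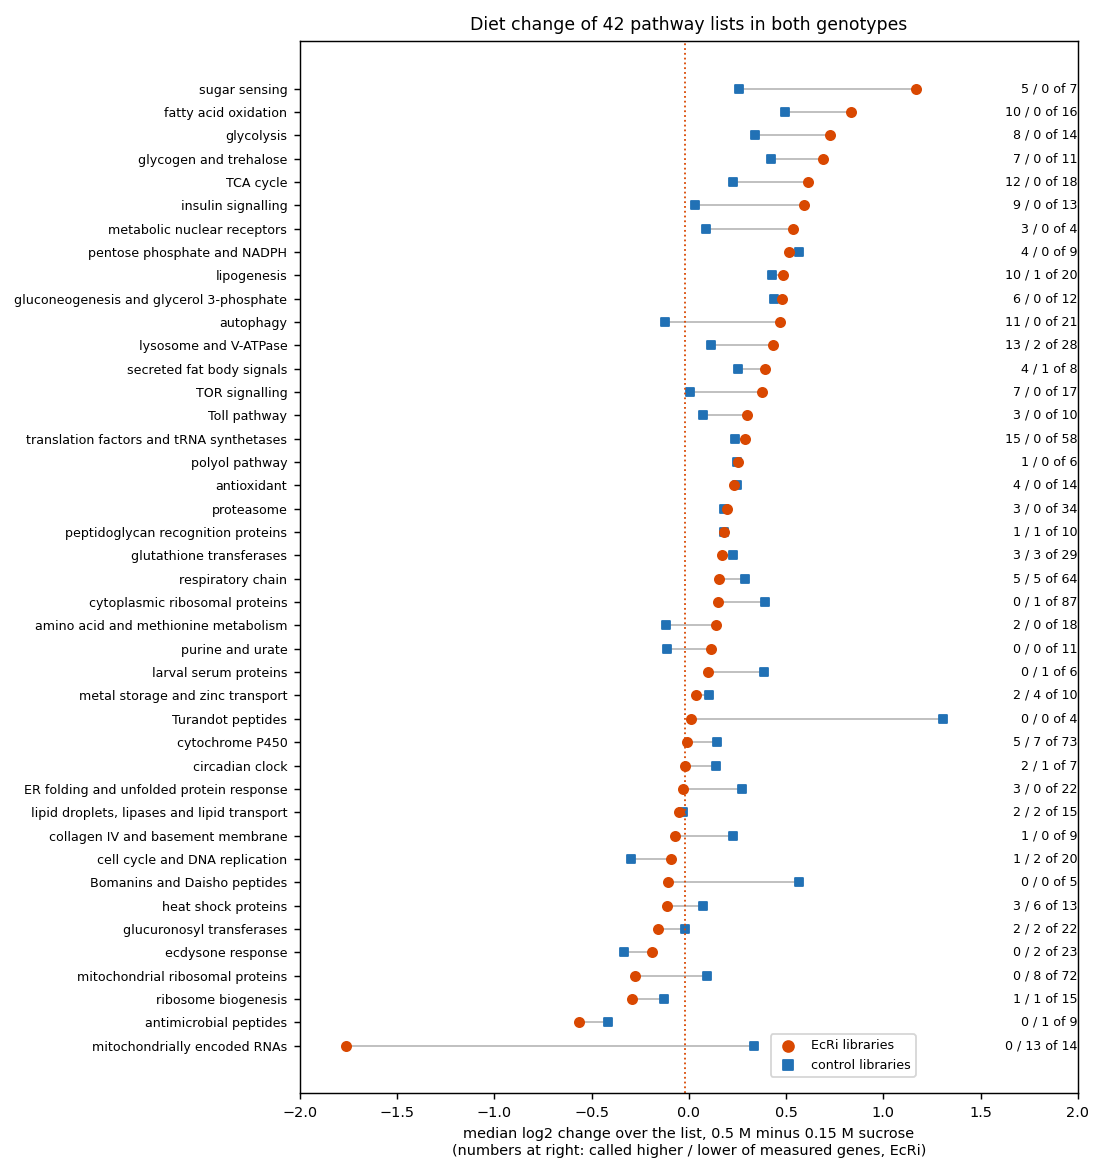
Median log2 change (0.5 M minus 0.15 M sucrose) over the measured genes of 42 pathway lists in EcRi (circles) and control libraries (squares), ordered by the EcRi median, with the EcRi counts called higher and lower at the right and the median of all genes in EcRi (-0.02) as a dotted line. Sugar sensing has the highest EcRi median, 1.17, and mitochondrially encoded RNAs the lowest, -1.76.

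Autophagy genes rose in EcRi. Of 21 measured 11 rose and 0 fell, 8 to 13 when 1 library was left out and 8 under both scaling alternatives. Their median was 0.47 and the interaction was called for 3. In controls the median was -0.12, limma and voom called 0, and 2 passed an unadjusted p under 0.05. CG8678, which encodes Atg18b, a phosphoinositide-binding protein of autophagosome formation, had 279, 258 and 297 on 0.15 M sucrose and 699.9, 553 and 702 on 0.5 M in EcRi and 601, 516 and 586 on 0.15 M and 535, 473 and 412 on 0.5 M in controls. The EcRi libraries on 0.15 M lay below all others, and the rise was 1.22 ± 0.15 (adjusted p = 4.96e-05; interaction 1.48 ± 0.21, adjusted p = 0.00168). CG6194, the protease Atg4b, and Atg2, a lipid transfer protein of the growing autophagosome, rose by 1.31 and 0.92 (adjusted p = 0.000393 and 0.00105; interaction adjusted p = 0.0121 and 0.0259).

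Of 28 genes of the lysosome and its proton pump, the V-ATPase, 13 rose and 2 fell, with a median of 0.43 against 0.11 in controls. After quantile normalisation 5 rose and 2 fell, and without EcRi 0.15 M replicate 2 the counts were 8 and 1. Vha55, a catalytic-head subunit of the pump, had 1028, 906 and 1276 on 0.15 M sucrose and 2719.7, 2125 and 1996 on 0.5 M and rose by 1.09 ± 0.16 (adjusted p = 0.000323; interaction adjusted p = 0.0299). The pump genes VhaAC39-1 and Vha68-2 rose by 0.94 and 0.89 (adjusted p = 0.000727 and 0.00101).

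Small heat shock protein genes and metallothioneins were among those that fell. Of 13 heat shock protein genes 6 fell and 3 rose. The count that rose was 0 under either scaling alternative and without EcRi 0.15 M replicate 1 or 2 or EcRi 0.5 M replicate 3, and 1 without EcRi 0.5 M replicate 1. In controls limma and voom called 0, with 3 at an unadjusted p under 0.05, and the interaction was called for 4, each lower in EcRi. Hsp23 (FBgn0001224), a small chaperone, had 4999.5, 9377 and 5723 on 0.15 M sucrose and 985, 1711 and 1449.7 on 0.5 M, so that every 0.5 M library was far below the lowest 0.15 M library. It fell by 2.26 on the log2 scale (SE 0.33, adjusted p = 0.000384), and controls, at 26816, 13446 and 32943 on 0.15 M and 23921, 21546 and 16601 on 0.5 M, changed by -0.16 ± 0.33 (interaction adjusted p = 0.0242). Hsp26, Hsp27 and Hsp67Bc, small chaperones as well, fell, with changes of -2.21, -1.91 and -1.76 (adjusted p from 0.000435 to 0.00106), with the interaction called for Hsp26 and Hsp27 at -2.59 and -1.96 (adjusted p = 0.0115 and 0.0162).

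Of 10 genes of metal storage and zinc transport 4 fell and 2 rose. MtnA, a metallothionein, which is a small cysteine-rich protein that binds copper and other metals, had 5501, 4556 and 4975 on 0.15 M sucrose and 982, 1590.5 and 958 on 0.5 M, with no overlap. It fell by 2.13 (SE 0.22, adjusted p = 1.36e-05), against -0.22 ± 0.22 in controls (interaction -1.91 ± 0.31, adjusted p = 0.00415). MtnD and MtnE fell, with changes of -2.21 and -1.74 (adjusted p = 0.000478 and 0.000308). ZnT35C, a zinc exporter, had 110.1, 117 and 114 on 0.15 M sucrose and 31.3, 20.7 and 25 on 0.5 M in EcRi and 113, 103 and 112 on 0.15 M and 57, 59.8 and 61.9 on 0.5 M in controls. It fell in both genotypes, with changes of -2.13 and -0.87 (adjusted p = 1.91e-06 and 0.0215; interaction adjusted p = 0.0138). It is also a marker of Malpighian tubules, and with Oatp58Da, an organic anion transporter, was 1 of the 2 of 6 tubule markers that fell.

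RNAs encoded by the mitochondrial genome fell in EcRi. This list was drawn up after its values were seen, so its count is a description. Of 14 measured 13 were called lower and 0 higher, 10 to 13 lower when 1 library was left out, and all 14 had groups that did not overlap. The median was -1.76 in EcRi, and the interaction was called for 8. In controls the median was 0.33, limma and voom called 0, and 1 passed an unadjusted p under 0.05. Their summed signal was 1196000, 962900 and 828400 in the EcRi libraries on 0.15 M sucrose and 221300, 411600 and 307800 on 0.5 M. In controls it was 831700, 688900 and 630600 on 0.15 M and 1556000, 514700 and 825600 on 0.5 M, the highest being that of control 0.5 M replicate 1. mt:CoI (FBgn0013674), subunit 1 of cytochrome c oxidase, had 140980, 130560 and 109240 on 0.15 M sucrose and 29314, 41803 and 39002 on 0.5 M. It fell by 1.8 (SE 0.28, adjusted p = 0.000456) or 3.46-fold, and controls, at 135930, 83909 and 73785 on 0.15 M and 149810, 84596 and 120080 on 0.5 M, changed by 0.28 ± 0.28 (interaction adjusted p = 0.011). mt:CoII, mt:ND5 and mt:ATPase8 fell, with changes of -1.73, -2.21 and -2.05 (interaction adjusted p from 0.0156 to 0.0191). With upper quartile scaling and after quantile normalisation 13 were again called lower, and voom on the recovered reads called 12. The abundant ribosomal RNA mt:lrRNA, named after its values were seen, had 794000, 603390 and 540060 on 0.15 M sucrose and 137900, 286420 and 195950 on 0.5 M and fell (adjusted p = 0.00673). Ribosomal RNA was depleted before sequencing, per the labels' protocols, and the part of that depletion in these values was not tested.

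The nuclear genes of mitochondrial respiration were called in both directions. Of 64 respiratory chain genes 5 rose and 5 fell, a share of 15.6% called against 24.4% of all genes, and the median was 0.15. In the 3 highest deciles of expression, where 50 of the 64 lie, 30.7% of genes were called higher. SdhB, the iron-sulphur subunit of succinate dehydrogenase, rose by 0.67 (adjusted p = 0.00478), and CG40002 (ND-AGGG), a subunit of complex I, fell by 0.93 (adjusted p = 0.00657; interaction -1.44 ± 0.31, adjusted p = 0.0179). Under upper quartile scaling 1 rose and 6 fell. The counts rested on single libraries, with 14 higher without control 0.5 M replicate 1, 2 without EcRi 0.15 M replicate 1 and 1 without EcRi 0.15 M replicate 2 or EcRi 0.5 M replicate 1 or 3, and 2 to 5 lower when 1 of the 12 was left out. Of 72 mitochondrial ribosomal protein genes 8 fell and 0 rose, or 11.1% called lower, a share near the 10.4% of all genes and below the 15.1% of the 3 lowest deciles. Their median was -0.28 against 0.09 in controls, and mRpL34 fell by 1.31 (adjusted p = 0.00386). That count was 25 with upper quartile scaling, 3 after quantile normalisation, 1 without EcRi 0.15 M replicate 2, where 1 also rose, and 3 without EcRi 0.5 M replicate 1 or 2, and none of the 72 lies in the 3 highest deciles of expression.

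Genes of ecdysone synthesis, which in larvae takes place in the prothoracic gland of the ring gland, moved in opposite directions. In the ring gland list 3 of 6 fell and 1 rose, under each alternative scaling and each leave-out. spok (FBgn0086917), an early enzyme of the pathway, had 93.8, 191 and 133 on 0.15 M sucrose and 4.05, 5.42 and 6.34 on 0.5 M. It fell by 4.44 (SE 0.44, adjusted p = 2.61e-05) or 26.4-fold. The EcRi libraries on 0.5 M lay below all other libraries, and the interaction was -4.08 ± 0.62 (adjusted p = 0.00426). phm (phantom), a later hydroxylase named after its value was seen, had 235, 231 and 239 on 0.15 M sucrose and 33.3, 29.4 and 45 on 0.5 M, with no overlap. It fell by 2.7 (adjusted p = 8.47e-05; interaction adjusted p = 0.0122), and nvd, which converts cholesterol in the first step, fell by 2.92 (adjusted p = 0.00344; interaction adjusted p = 0.0851). sad (FBgn0003312), another late hydroxylase, had 1373, 1265 and 891 on 0.15 M sucrose and 7360.4, 6512 and 7988 on 0.5 M. It rose by 2.65 ± 0.24 (adjusted p = 4.67e-06) or 6.2-fold, while controls, at 199, 155 and 304 on 0.15 M and 209, 226 and 322 on 0.5 M, changed by 0.23 ± 0.24 (interaction 2.42 ± 0.33, adjusted p = 0.00181). These genes mark another tissue, and the part of ring gland RNA in their values was not tested.

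Few known targets of ecdysone were called with diet in EcRi. Of 23 ecdysone response genes 2 fell and 0 rose, a share of 8.70% called against 24.4% of all genes, and the median was -0.19 in EcRi and -0.33 in controls. The ecdysone-inducible gene ImpE2 had 797, 1498 and 1116 on 0.15 M sucrose and 97, 256 and 298 on 0.5 M, with no overlap, and fell by 2.49 (SE 0.47, adjusted p = 0.00547). ImpE3, named for the same induction, fell by 1.62 (adjusted p = 0.000917). Upper quartile scaling gave 6 lower of the 23, and 4 were lower without EcRi 0.5 M replicate 3. Among larval serum proteins, the storage proteins that the fat body secretes late in larval life, 1 of 6 fell. Lsp1alpha had 114000, 114970 and 239000 on 0.15 M sucrose and 72790, 51650 and 28527 on 0.5 M, with no overlap although EcRi 0.15 M replicate 3 was well above the other two. It fell by 1.62 (SE 0.37, adjusted p = 0.00588; interaction adjusted p = 0.0621). Its partner Lsp1beta changed by 0.3 ± 0.28 (adjusted p = 0.463).

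Immune peptides did not pass the test, with 1 exception. Of 9 antimicrobial peptide genes 1, AttB, was called lower, at -2.12 ± 0.66 (adjusted p = 0.0449). It lost its call in 8 of the 12 fits that left out 1 library and can share reads with AttA. The median of these 9 was -0.56. In limma 0 of 5 Bomanin and Daisho peptides and 0 of 4 Turandot peptides were called, and voom on the recovered reads called 0 as well. At an unadjusted p under 0.05 there were 0 in both lists. CG15068 (BomS6), a Bomanin of the Toll response, was at 2098, 1792 and 928 on 0.15 M sucrose and 933, 1325 and 1626 on 0.5 M in EcRi and 24.9, 21.1 and 21.5 on 0.15 M and 45, 13.4 and 25.6 on 0.5 M in controls, so that the genotypes lay apart and the diets within EcRi overlapped. Of 10 peptidoglycan recognition proteins, which detect bacterial cell walls, 1 rose and 1 fell. PGRP-SB1 fell by 1.78 (adjusted p = 0.0028; interaction adjusted p = 0.0408) and PGRP-LB rose by 0.61 (adjusted p = 0.00602). Of 10 Toll pathway genes 3 rose, and 1 rose and 1 fell under either scaling alternative, and 1 rose without EcRi 0.15 M replicate 1 or EcRi 0.5 M replicate 1 or 2. Myd88, the adaptor of the Toll receptor, rose by 0.8 ± 0.15 (adjusted p = 0.00164; interaction adjusted p = 0.0365).

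Detoxification and antioxidant genes were called at shares of 16.4% to 28.6%, on both sides of the 24.4% of all genes. Of 73 cytochrome P450 genes 5 rose and 7 fell. Cyp4e3 (FBgn0015035) had the largest rise of all genes that met the naming rule, with 33.5, 47.9 and 46.2 on 0.15 M sucrose and 3718, 1996 and 1866 on 0.5 M. It rose by 5.8 ± 0.29 (adjusted p = 3.98e-07) or 59.4-fold, and in controls, at 35, 25.6 and 29.6 on 0.15 M and 1092, 555 and 573 on 0.5 M, by 4.51 ± 0.29 (adjusted p = 6e-06; interaction adjusted p = 0.0985). Cyp9b2 fell by 1.17 in EcRi and changed by 0.36 ± 0.23 in controls (adjusted p = 0.00239; interaction adjusted p = 0.0183), and Cyp9h1 fell by 1.51 (adjusted p = 0.000847). Upper quartile scaling gave 3 P450 genes higher and 19 lower. Without EcRi 0.15 M replicate 1 or 2 or EcRi 0.5 M replicate 1 it was 2 that rose, without EcRi 0.5 M replicate 3 it was 3, and without control 0.5 M replicate 1 it was 6, with 11 lower. Of 29 glutathione transferases 3 rose and 3 fell. GstE9 rose by 1.16, and GstD3 fell in both genotypes, with changes of -1.44 in EcRi and -1.1 in controls (adjusted p = 0.000705, 0.000727 and 0.029). Of 22 glucuronosyl transferases 2 rose and 2 fell, among them CG5999, which fell by 1.94 (adjusted p = 0.00881), and 0 rose and 1 fell without EcRi 0.15 M replicate 1 or EcRi 0.5 M replicate 2. In the antioxidant list 4 of 14 rose and 0 fell, with 2 higher and 2 lower under upper quartile scaling and 2 higher without EcRi 0.15 M replicate 2 or EcRi 0.5 M replicate 1. Gclc, the catalytic subunit of the enzyme that limits glutathione synthesis, rose by 0.85, and the peroxiredoxin gene Jafrac1 by 0.85 (adjusted p = 0.000621 and 0.00202).

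Of 58 translation factor and tRNA synthetase genes 15 rose and 0 fell, with a median of 0.29. They were called at a share of 25.9%, against 24.4% of all genes called in either direction and 30.7% called higher in the 3 highest deciles, where 49 of the 58 lie. The count was 5 higher and 1 lower with upper quartile scaling, and 3 to 9 rose without EcRi 0.15 M replicate 1, 2 or 3 or EcRi 0.5 M replicate 1 or 2. Subunits of the initiation factor eIF3 led this list, with CG5642 at 0.81 and eIF3-S9 at 0.79 (adjusted p = 0.00303 and 0.00421). Of 87 cytoplasmic ribosomal protein genes 1, RpL41, fell, by 0.97 (adjusted p = 0.00689; interaction -1.21 ± 0.32, adjusted p = 0.0473), and the list's median was 0.15 against 0.39 in controls. Without control 0.5 M replicate 1 the counts were 7 higher and 2 lower. It was 2 lower without EcRi 0.15 M replicate 1, EcRi 0.5 M replicate 3 or control 0.5 M replicate 2, 4 with upper quartile scaling and 5 after quantile normalisation. Of 34 proteasome genes 3 rose, led by Rpn1 at 0.7 (adjusted p = 0.00822), and after quantile normalisation 0 rose and 4 fell. Of 22 genes of protein folding in the endoplasmic reticulum 3 rose, 1 without EcRi 0.15 M replicate 1 or 2 or EcRi 0.5 M replicate 1 or 3, led by the stress sensor Ire1 at 0.52 (adjusted p = 0.00965), and after quantile normalisation 0 rose and 5 fell. Of 15 ribosome biogenesis genes 1 rose and 1 fell, and of 18 genes of amino acid and methionine metabolism 2 rose, and the 4 called genes lost their calls with single libraries left out.

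The remaining pathway lists held 0 to 3 calls each. Of 11 purine and urate genes limma and voom called 0, and 2 passed an unadjusted p under 0.05. Leaving out control 0.5 M replicate 1 gave 3 called higher in limma, and leaving out EcRi 0.15 M replicate 3 or control 0.5 M replicate 3 gave 1. ade2, an enzyme of purine synthesis, was at 0.68 ± 0.24 (adjusted p = 0.0528). Of 9 basement membrane genes Pxn, peroxidasin, rose by 1.01 ± 0.17 in EcRi and by 0.88 ± 0.17 in controls (adjusted p = 0.000692 and 0.0124). In the circadian clock list 2 of 7 rose and 1 fell, and vri, a clock transcription factor, rose by 0.84 ± 0.14 against -0.04 ± 0.14 in controls (adjusted p = 0.000586; interaction adjusted p = 0.0202). Of 20 cell cycle and DNA replication genes 1 rose and 2 fell, and the 3 lost their calls with single libraries left out.

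Markers of other tissues also moved with diet. Of 13 muscle genes 8 rose and 0 fell, with a median of 1.48 against 0.06 in controls. Their summed signal was 16830, 8682 and 29780 in the EcRi libraries on 0.15 M sucrose and 83790, 39510 and 42630 on 0.5 M, against 43560, 47110 and 21300 and then 28770, 39140 and 44530 in controls. The EcRi libraries on 0.5 M were above those on 0.15 M, and 2 of them lay within the range of the controls. The muscle actin Act87E had 272, 129 and 375 on 0.15 M sucrose and 1361, 751 and 750.1 on 0.5 M and rose by 1.95 ± 0.43 (adjusted p = 0.0101), and the troponin gene up rose by 1.48 ± 0.38 (adjusted p = 0.0156) and was not called without EcRi 0.5 M replicate 1. The count was 4 with upper quartile scaling and 1 after quantile normalisation. It was 2 and 3 without EcRi 0.15 M replicates 1 and 2, 1, 4 and 5 without EcRi 0.5 M replicates 1, 2 and 3, and 5 without control 0.5 M replicate 2. The interaction was called for 0 of the 13 by limma and by voom, with 6 at an unadjusted p under 0.05. Muscle also expresses genes of glycolysis, the TCA cycle and respiration.

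The other marker lists held fewer changes. Salivary gland markers summed to 1320, 2886 and 3845 on 0.15 M and to 6178, 6949 and 1900 on 0.5 M in EcRi, with overlap, and to between 7251 and 31280 in controls, so that all EcRi libraries lay below all control libraries. Of these 7 genes 1 rose, the glue gene Sgs3, at 1.76 ± 0.43 (adjusted p = 0.0167), which lost its call without EcRi 0.15 M replicate 2 and without EcRi 0.5 M replicate 1 or 2. Of 8 hemocyte markers 1 rose and 2 fell, Pxn given above and lz, a transcription factor of crystal cells, which fell by 1.38 (adjusted p = 0.00213). Of 25 cuticle genes 2 rose and 2 fell, of 11 midgut genes 1 rose, of 4 oenocyte genes svp rose, and of 3 germline genes 2 fell, aub at -1.65 ± 0.4 (adjusted p = 0.00809) from signals of 17.6, 9.31 and 13.1 on 0.15 M sucrose and 3.03, 4.31 and 3.08 on 0.5 M. limma and voom called 0 of 8 nervous system genes and 0 of 4 sex markers, and 1 and 0 passed an unadjusted p under 0.05.

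**Figure D5:**
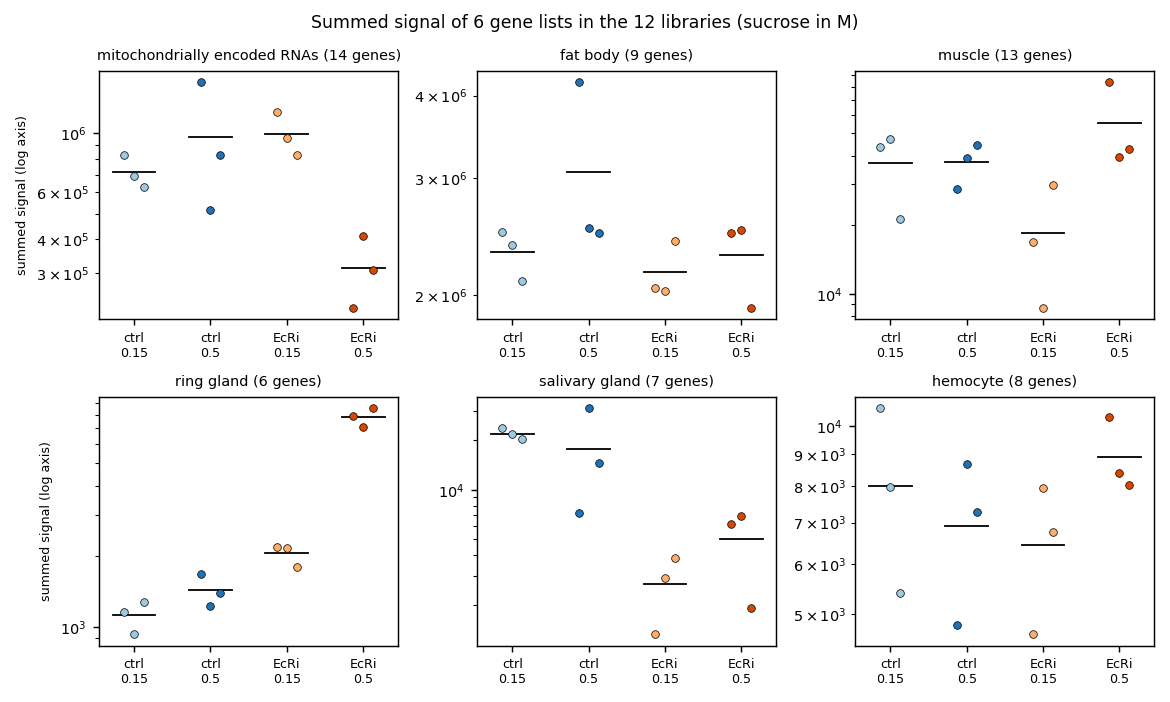
Summed signal (log axis) of mitochondrially encoded RNAs and of markers of the fat body, muscle, ring gland, salivary gland and hemocytes in each of the 12 libraries, with a bar at each group mean. The EcRi libraries on 0.5 M sucrose have the lowest mitochondrial sums, 221300 to 411600, higher muscle sums than those on 0.15 M, and fat body sums of 1911000 to 2509000, the lowest of which, in replicate 3, lies below the other 9 libraries. Most of their ring gland sum is the signal of a single gene, sad, which rose. The ring gland markers spok, phm and nvd fell.

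The leading single genes were found by rank among called genes with separate EcRi groups and a mean signal of at least 10 on one of the diets. After Cyp4e3, the largest rises were those of CG1077, CG11898 and Cpr47Eb, a cuticle protein, at 5.8, 4.66 and 4.34. CG1077 (FBgn0037405) had 21.9, 12.2 and 4.03 on 0.15 M sucrose and 1278, 558 and 364 on 0.5 M, and controls had 4.51, 10.9 and 2.07 on 0.15 M and 17.1, 12.1 and 16.8 on 0.5 M. All EcRi libraries on 0.5 M were more than 10 times the highest of the other libraries, and the interaction was 4.33 ± 0.87 (adjusted p = 0.0215). Next came CG3348 at 3.98, the carbonic anhydrase CAH9 (CG6074) at 3.76, ng3 at 3.64, CG10814 at 3.43, CG4269 at 3.39, CG5697 at 3.3 and CG14515 at 3.27. Gpo-1, CG13741, CG14275 and CG9451 closed the 15, the last at 2.84, and the adjusted p of the 15 ran from 3.98e-07 to 0.00441.

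The 15 differed in their values in controls. CG6074 had 29.9, 16.8 and 27.1 on 0.15 M sucrose and 261, 452 and 326 on 0.5 M in EcRi and 6.74, 9.97 and 11.2 on 0.15 M and 83.5, 74.4 and 90.2 on 0.5 M in controls, and rose in both, by 3.76 ± 0.27 and 3.04 ± 0.27. CG3348, ng3, CG13741 and CG14275 likewise rose in controls, by 3.71, 2.96, 2.13 and 2.96 (adjusted p from 2.2e-05 to 0.0338). CG10814, in contrast, had 134, 173 and 88.4 on 0.15 M sucrose and 1795, 989.7 and 1476 on 0.5 M in EcRi and 40.1, 32.4 and 51 on 0.15 M and 48.8, 17.5 and 38.1 on 0.5 M in controls. Its control change was -0.33 ± 0.37 and its interaction 3.76 ± 0.52 (adjusted p = 0.00379). CG9451, CG5697, CG14515 and CG11898 had interactions of 2.99, 4.04, 4.32 and 3.68 (adjusted p from 0.000549 to 0.0362). CG4269 was at 32.1, 14.9 and 32.1 on 0.15 M sucrose and 271, 249 and 296 on 0.5 M in EcRi and 576, 352 and 626 on 0.15 M and 1282, 816 and 782 on 0.5 M in controls, so that EcRi stayed below the controls on either diet while rising by 3.39 ± 0.3.

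The largest falls after spok were those of CG15369 and CG1722, at -3.2 and -3.0. CG15369 (FBgn0030105), an abundant transcript, had 4535, 6050.5 and 4401 on 0.15 M sucrose and 314, 1081 and 456 on 0.5 M, with no overlap, and controls had 10094, 7999 and 5140.1 on 0.15 M and 18027, 7059 and 8388 on 0.5 M (interaction -3.65 ± 0.67, adjusted p = 0.0177). The long non-coding RNA of the let-7 complex (CR43344) followed at -2.95, then nvd, the protease gene ndl at -2.86, CG12951 at -2.85, CG14332 at -2.8, CG33012 at -2.79 and CG4950 at -2.78. CG42798, the dynein heavy chain gene Dhc98D, CR41618, CG33465 and CG15919 closed the 15 at -2.78 to -2.72, and the adjusted p of the 15 ran from 2.61e-05 to 0.0254. Some of these falls ended at low values. Dhc98D had 67.8, 13.9 and 9.05 on 0.15 M sucrose and 2.02, 2.18 and 2.35 on 0.5 M in EcRi. CG15919 had 14.4, 10.3 and 11 on 0.15 M and 1.01, 1.09 and 0.746 on 0.5 M. CG14332 was not called without EcRi 0.15 M replicate 2 or EcRi 0.5 M replicate 1 or 2 (adjusted p of 0.0785 to 0.0979), nor CG42798 without EcRi 0.5 M replicate 1 (adjusted p = 0.0524). Among called interactions, besides those of spok, CG15369, CG1722 and CG15919, the most negative were those of the non-coding RNA CG42715 at -3.48 ± 0.69 and CG9150 at -3.08 ± 0.66 (adjusted p = 0.0121 and 0.0175). CG42715 had 7.90, 9.35 and 15.1 on 0.15 M sucrose and 3.03, 3.23 and 1.45 on 0.5 M in EcRi and 1.37, 6.50 and 2.05 on 0.15 M and 15.2, 8.82 and 12.4 on 0.5 M in controls, all low values. The diet calls in EcRi were lost without EcRi 0.15 M replicate 3 or EcRi 0.5 M replicate 3 for CG42715, and without EcRi 0.15 M replicate 2 or EcRi 0.5 M replicate 1 for CG9150.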

How the data were processed

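RNA-seq values of 12 fat body libraries, in 4 groups of 3, were analysed. The deposited table holds a normalised signal per gene made by the authors. Per the submitters' processing notes, edgeR, Cufflinks 1.1.0, TopHat 1.3.2 and Bowtie 0.12.7 were among the tools, with no roles stated. The genome build, annotation and use of strand are not given in the sources used here, so reads of overlapping antisense genes cannot be told apart. Most low values map back to whole reads (96.3% to 100% per library within 0.05, for values from 5 to 40) if counts were adjusted to a common library size with a dispersion of 0.045, and depths were taken from these recovered reads.

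Differences of log2(signal + 1) were tested with limma 3.58.1 in R 4.3.3, with trended, robust variances, 1 model of the 4 groups and Benjamini-Hochberg adjustment over 10047 genes. The log2 scale with a pseudocount of 1 understates changes of low genes. No gene was filtered out, since the lowest mean was 1.67. The method was tested on simulated counts without a shift by expression level or an outlying library, so that test does not measure the effect of either here.

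The genes named were the 15 largest rises and falls (called, groups apart, higher mean at least 10), the 6 most positive and negative interactions, and the 4 (pathways) or 2 (cell types) genes of each list with the smallest p, of which the text gives those it describes. Others are said to be named after their values were seen. The comparison and the lists were chosen with earlier results of these data known. Current names were found for 9605 of 10047 gene identifiers. Alternatives were other pseudocounts, a mean of at least 10, upper quartile and quantile scaling, library weights, plain variances, fits to 1 genotype, a replicate block, voom on recovered reads and leaving out each library.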

Additional observations from a re-analysis of the deposited data

Results flagged for a closer look

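Among the genes named above, 50 had a diet change that differed between EcRi and control libraries by the interaction test (limma, adjusted p from 0.000502 to 0.0478), 29 with a larger value in EcRi and 21 with a smaller one. Values are the EcRi change minus the control change in log2 units.

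Genes of no list had the highest values, CG1077 at 4.33, CG14515 at 4.32, CG5697 at 4.04, CG10814 at 3.76, CG11898 at 3.68, CG9451 at 2.99 and CG4269 at 2.5. The ecdysone synthesis gene sad was at 2.42. In insulin and TOR signalling, Ilp6 was at 1.79, Thor at 1.75, Pi3K92E at 1.52, Sesn at 1.07, Akt1 at 0.91, gig at 0.91 and S6k at 0.89. In metabolism and sugar sensing, Gpo-1 was at 1.5, Smox at 1.37, Mio at 1.26, Pfrx at 1.23, Men at 1.11, CG5261 at 0.96 and bmm at 0.96. In autophagy and the lysosome, CG8678 was at 1.48, CG6194 at 1.43, Atg2 at 1.0 and Vha55 at 0.98. The transcription factor genes svp and vri were at 0.93 and 0.89, and Myd88 was at 0.86.

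Of the negative values, those of the heat shock protein genes were -1.96 for Hsp27, -2.1 for Hsp23 and -2.59 for Hsp26. The mitochondrial RNAs mt:CoII, mt:CoI, mt:ATPase8 and mt:ND5 were at -2.02, -2.08, -2.48 and -2.69. The ecdysone synthesis genes phm and spok were at -2.34 and -4.08. MtnA was at -1.91 and the transporter genes ZnT35C and Oatp58Da at -1.26 and -1.6. RpL41 was at -1.21, CG40002 at -1.44, Cyp9b2 at -1.53 and PGRP-SB1 at -1.99. Genes of no list were CG1722 at -3.02, CG9150 at -3.08, CG15919 at -3.42, CG42715 at -3.48 and CG15369 at -3.65. With upper quartile scaling the median interaction over all genes moved from -0.05 to -0.16.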

How the results depend on the processing

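Of 130 called genes named above, 117 kept their call in all 12 fits that left out 1 library. The call was kept by 125 with upper quartile scaling, 118 after quantile normalisation and 130 with voom on recovered reads. None of these 130 changed sign under any alternative. Most of them were chosen for a small p or a large change in these data, which favours keeping the call. Over all 2451 genes called in EcRi, 74.2% were kept with upper quartile scaling, 57.7% after quantile normalisation and 97.5% with voom. Leaving out 1 library kept as few as 54.4%, without EcRi 0.5 M replicate 1. EcR, not called, moved to -0.0168 after quantile normalisation (adjusted p = 0.957). For diet in EcRi with all EcRi libraries kept, the counts that moved past 1.5 times were those by direction. They were 773 higher and 1792 lower with upper quartile scaling and 931 higher after quantile normalisation. Leaving out 1 library gave 1355 to 2959 calls, 837 to 1722 higher and 518 to 1237 lower. The lowest of each, without EcRi 0.5 M replicate 1, also moved past 1.5 times. So did the 1431 calls, 867 higher and 564 lower, without EcRi 0.15 M replicate 2. For diet in controls, library weights, whose estimation stopped short of its convergence tolerance, gave 968 calls, plain variances 67 and a fit to controls alone 60, and leaving out 1 library gave 74 to 359. For the interaction, library weights gave 1546 calls (914 larger, 632 smaller), plain variances 149 (85 and 64) and upper quartile scaling 139 larger and 209 smaller, while leaving out 1 library gave 141 to 532 (89 to 377 larger, 52 to 212 smaller). The cause of these shifts was not tested. Replicate numbers did not pair the EcRi libraries of the 2 diets, whose same-numbered correlations of deviations were -0.072, -0.00985 and -0.196. With unlike numbers these ran from -0.13 to 0.215. Same-numbered control 0.15 M and EcRi 0.5 M libraries had 0.165, 0.0173 and 0.0997, and not every library correlated best with its own number. A pairing under other numbers was not tested, and a block by replicate number does not adjust for one. With a replicate block 2272 genes were called in EcRi (1290 higher, 982 lower), 171 in controls and 260 for the interaction (161 larger). The planned edgeR fit was not run, because the table holds no deposited read counts, and voom on recovered reads, chosen after seeing the data, took its place with 2461 calls in EcRi, of which 2390 were shared. With 3 libraries a group, low genes carry the widest errors, and 928 genes had a mean under 10.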

Other observations

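Non-coding RNAs were also among the genes called lower in EcRi. Of 136 genes annotated as non-coding RNA 2 were called higher and 32 lower, with a median of -0.68 against -0.08 in controls. That is 23.5% called lower, against 10.4% of all genes and 15.1% of the 3 lowest deciles of expression. How these RNAs spread over the deciles was not counted. With upper quartile scaling 1 was higher and 47 lower, and after quantile normalisation 5 were higher and 18 lower. The 1045 genes called lower in EcRi had a median mean signal of 54.46, and 61.6% of them changed at least 2-fold, against a median of 391.9 and 24.8% for the 1406 called higher.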
